A study of Mus musculus with 8 samples.

Results

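The syndecans, the glypicans and the syndecan-binding syntenins were followed between cells of 4T1, a mouse mammary carcinoma line, that carry SCA1 on their surface and cells that do not. The 10 genes were listed by symbol (Sdc1, Sdc2, Sdc3, Sdc4, Gpc1, Gpc3, Gpc4, Gpc6, Sdcbp and Sdcbp2) and matched to Ensembl identifiers. Of them 9 were among the 16341 genes counted, 8 passed the low-count filter, Gpc3 did not, and Gpc6 was not among the genes counted. They were chosen by symbol with the fold changes between these same libraries already known, so the differences of its members are described here and support nothing by themselves. RNA was sequenced in 4 libraries of 4T1-Sca1+ and 4 of 4T1-Sca1- cells, numbered 1 to 4 in the labels. Both groups came from the same untreated line and were separated on magnetic columns after SCA1 staining, with a CD45-negative gate named in the labels. The labels name the parental line as source, whereas their protocol speaks of stained tumor. The study itself describes the fractions it profiled as sorted from the parental line. A single cell line was used, the study describes the fractions as able to convert into each other, and the labels do not say whether the libraries are separate sorts, so p-values measure only the spread between these libraries.

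Total counts lay between 13561804 and 16968215 per library, and the first principal component of all tested genes held 79.3% of the variance and separated the groups. Ly6a, the gene of SCA1, had between 145 and 196 counts in each 4T1-Sca1+ library, against 0 to 4 where SCA1 was absent. Epithelial markers were abundant in both groups, with a summed level of 2729 to 2970 CPM (counts scaled to library size) in 4T1-Sca1+ and 2626 to 2800 CPM in 4T1-Sca1- libraries for the 6 genes listed. Single markers differed, with Krt8 (log2 fold change 0.31 ± 0.04) and Krt18 (0.38 ± 0.04) higher in 4T1-Sca1+ cells by edgeR. Cdh1 (-0.69 ± 0.04) and Cldn4 (-0.62 ± 0.06) were lower, and Epcam and Krt19 were not called. Of 10 leukocyte markers 9 were counted, and their summed level was 19.1 to 22.7 CPM against 11.1 to 13.4 CPM. The 3 tested were higher in 4T1-Sca1+ cells, Csf1r by 1.18 ± 0.20, Cd68 by 0.65 ± 0.09 and S100a8 by 2.38 ± 0.27 on the log2 scale. Ptprc, which encodes CD45, had 2 to 4 counts in 4T1-Sca1+ and 0 to 1 in 4T1-Sca1- libraries, and Lyz2 reached at most 1. Counts of Cd79a (5 to 8 against 2 to 6) and Itgam (1 to 3 against 1 to 4) overlapped. The 6 counted of 8 fibroblast markers summed to 41.9 to 44.5 CPM against 25.7 to 30.5 CPM. At low counts, Dcn had 6 to 15 in 4T1-Sca1+ libraries against 1 in each 4T1-Sca1- library, and Pdgfrb 3 to 14 against 0 to 1. Col1a2 had 3 to 7 against 2 to 8. Of the 3 tested, Pdgfra (0.63 ± 0.07, adjusted p 2.28e-07, edgeR) and Col1a1 (0.75 ± 0.19, adjusted p 0.00252) were higher, and Postn (0.05 ± 0.24) was not called. The 5 counted of 6 endothelial markers summed to 2.30 to 2.89 CPM against 2.78 to 4.34 CPM. Tie1, the 1 tested, was lower (-0.60 ± 0.19, adjusted p 0.0121, edgeR), whereas Pecam1 had 4 to 7 counts against 0 to 2. The part of such cells in the results below was not tested. In bulk RNA, fewer cells of a type and less RNA per cell cannot be told apart.

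Heparan sulfate proteoglycans are core proteins that carry long sulfated sugar chains, which bind growth factors, chemokines and matrix proteins and present them to receptors. Syndecans cross the membrane with a short cytoplasmic tail, whereas glypicans are held on the outer leaflet by a glycosylphosphatidylinositol anchor. Syntenins are scaffold proteins with PDZ domains that bind the end of the syndecan tail, and syntenin-1 (Sdcbp) links syndecans to ALIX and to the formation of exosomes. Sdc1 is the principal syndecan of mammary and other epithelia, and Gpc1 is often overexpressed in breast cancer.

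Of the 10 genes, 6 had an upstream sequence in the RefSeq table used (GRCm38.p6). The stretches before Sdc3 and Sdcbp2 are shown because these genes had the largest difference in either direction, and because they lie outside the annotated transcripts in both RefSeq and GENCODE. Each lies on the plus strand and is read 5′ to 3′ and ending just upstream of the annotated start. Sdc3 lies at chr4:130792287-130792535 and Sdcbp2 at chr2:151572373-151572621. Capitals mark the GC box GGGCGG and the AP-1 element TGANTCA, searched on both strands.
Sdc3: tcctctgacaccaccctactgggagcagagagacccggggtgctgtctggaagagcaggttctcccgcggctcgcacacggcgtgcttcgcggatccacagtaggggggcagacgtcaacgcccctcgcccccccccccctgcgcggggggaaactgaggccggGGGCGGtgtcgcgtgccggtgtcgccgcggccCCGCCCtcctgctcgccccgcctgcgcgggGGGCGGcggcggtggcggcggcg
Sdcbp2: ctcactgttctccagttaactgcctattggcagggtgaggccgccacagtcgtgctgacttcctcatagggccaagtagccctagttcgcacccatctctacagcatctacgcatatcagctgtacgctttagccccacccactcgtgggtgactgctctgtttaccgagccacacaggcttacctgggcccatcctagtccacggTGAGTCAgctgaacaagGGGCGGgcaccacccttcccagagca

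The Sdc3 stretch was 76.3% G and C and held 3 GC boxes and 0 AP-1 elements, and the Sdcbp2 stretch was 57.8% G and C and held 1 of each. Among the 6 genes with a sequence, the AP-1 element was found for 1 (Sdcbp2) and the GC box for all 6, with 3 matches for Sdc1, 4 for Sdc4, 3 for Gpc3 and 1 for Gpc4. Over 32851 upstream windows of the same length, 6.74% held the AP-1 element and 32.6% the GC box. The E-box CACGTG (6.00% of all windows) and the antioxidant response element core TGACNNNGC (10.1%) were searched in the same way and matched none of the 6. No 2 of the matches in the printed stretches overlapped. These are matches of letters and say nothing of binding.

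The fractions differed most in Sdcbp2, Sdc3 and Gpc1. Sdcbp2 was 4.35-fold lower in 4T1-Sca1+ cells, while Sdc3 was 2.39-fold and Gpc1 2.21-fold higher. Sdc1 and Sdc4 were modestly higher, Gpc4 and Sdcbp modestly lower, and Sdc2 had overlapping groups with a log2 fold change of -0.002. Of the 8 members tested, 4 were higher (Sdc1, Sdc3, Sdc4 and Gpc1) and 3 were lower (Gpc4, Sdcbp and Sdcbp2) at an adjusted p under 0.05 by edgeR's quasi-likelihood test over 11717 genes, and Sdc2 was not called. The background was 61.5% of all tested genes called, 31.3% higher and 30.2% lower. The median log2 fold change of the 8 members was 0.16, beside 0.0074 over all tested genes. The normalized counts (counts divided by 1 size factor per library) were without overlap between the fractions for 7 of the 8 members, and for 54.7% of all tested genes. When a log2 difference of 1 or more in either direction was also required, 2 members were higher and 1 was lower, beside 5.22% and 0.879% of all genes tested. Since the list was made with this contrast known, nothing is read from these counts.

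**Figure D1:**
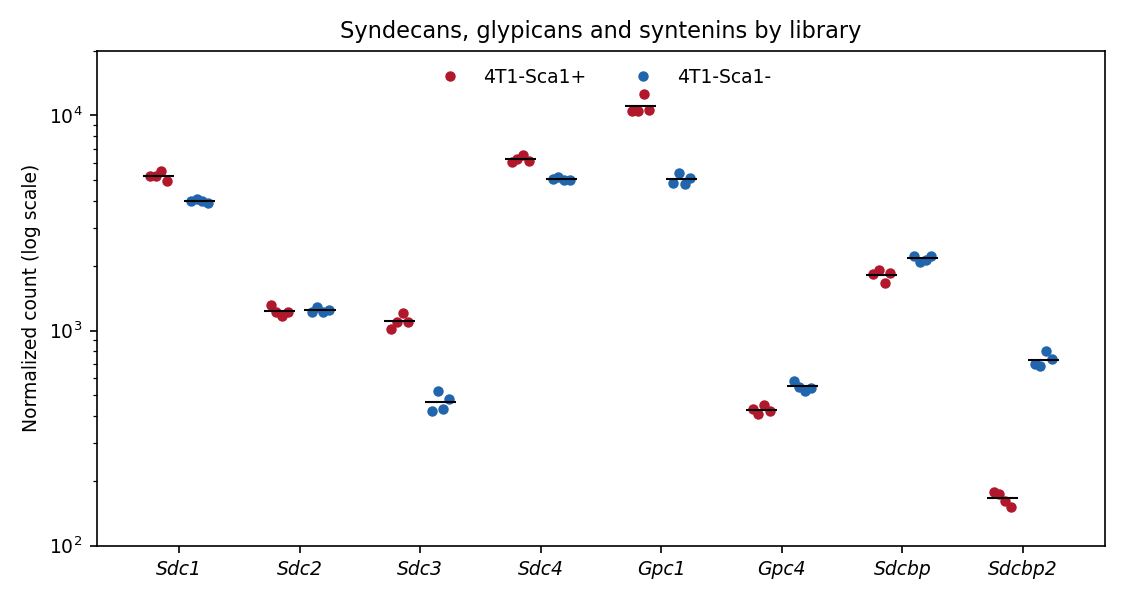
Normalized counts (log axis) of the 8 members that passed the filter, with 1 point for each of the 4 libraries of 4T1-Sca1+ (red) and 4T1-Sca1- (blue) cells, in the order of their replicate numbers, and a line at the group mean. The groups are apart for every gene drawn other than Sdc2, and the widest gap is that of Sdcbp2, with 151 to 178 against 687 to 800 normalized counts.

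Among the syndecans, Sdc3, the member best known from the nervous system and from muscle satellite cells, showed the largest difference. Sdc3 (ENSMUSG00000025743, GRCm38 chromosome 4, 130792537 to 130826319, plus strand) had 1012, 1096, 1208 and 1102 normalized counts in 4T1-Sca1+ libraries 1 to 4. In the 4T1-Sca1- libraries it had 425, 523, 431 and 483. Every 4T1-Sca1+ library was thus well above every 4T1-Sca1- library. The means were 1104.3 ± 80.4 and 465.3 ± 46.2 (SD, n = 4), and the log2 fold change was 1.26 ± 0.07 (standard error), the value of rank 400 from the highest among the genes tested. The annotation places antisense models opposite Sdc3 that were not counted themselves, and the use of strand in counting is not stated.

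Sdc1, which also marks plasma cells, was modestly higher. Sdc1 (ENSMUSG00000020592, chromosome 12, 8771323 to 8793715, plus strand) had 5259, 5231, 5534 and 4986 normalized counts in 4T1-Sca1+ libraries and 4022, 4102, 3994 and 3927 in 4T1-Sca1- libraries. The lowest 4T1-Sca1+ library lay above the highest 4T1-Sca1- library. The log2 fold change was 0.40 ± 0.04. Correction of each library for transcript GC content, which is 55.2% for Sdc1, lowered it to 0.20 without ending the call.

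Sdc4, the syndecan of focal adhesions, which binds protein kinase C alpha, behaved alike. Sdc4 (ENSMUSG00000017009, chromosome 2, 164424247 to 164443887, minus strand) had 6088, 6283, 6545 and 6170 normalized counts in 4T1-Sca1+ libraries and 5073, 5166, 5016 and 5027 in 4T1-Sca1- libraries. The groups were apart here too, and the log2 fold change was 0.32 ± 0.04.

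Sdc2, which is found mostly on mesenchymal cells, had 1309, 1219, 1175 and 1219 normalized counts in 4T1-Sca1+ libraries and 1218, 1293, 1214 and 1250 in 4T1-Sca1- libraries. Sdc2 (ENSMUSG00000022261, chromosome 15, 32920723 to 33034935, plus strand) was the 1 tested member whose groups overlapped. Its log2 fold change was -0.002 ± 0.049, a value whose sign turned under other scalings. With library totals alone it was 0.041, while the median over all tested genes moved from 0.0074 to 0.050.

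The glypicans went in opposite directions. Gpc1 (ENSMUSG00000034220, chromosome 1, 92831645 to 92860779, plus strand), had 10480, 10452, 12654 and 10634 normalized counts in 4T1-Sca1+ libraries and 4853, 5429, 4824 and 5110 in 4T1-Sca1- libraries. Replicate 3 of 4T1-Sca1+ stood above the other 3 libraries of its group, and even the lowest of these was far above every 4T1-Sca1- library. The log2 fold change was 1.14 ± 0.06, and 1.07 without 4T1-Sca1+ replicate 3. With GC-corrected offsets it was 0.84, the transcript being 59.1% G and C. Ankmy1 overlaps Gpc1 on the opposite strand, with 977 bases as the longest overlap between single exons, but had only 10 counts over all libraries.

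Gpc4, a glypican of embryonic tissues and adipose tissue, was the second one expressed. Gpc4 (ENSMUSG00000031119, chromosome X, 52053021 to 52165252, minus strand) had 431, 408, 450 and 422 normalized counts in 4T1-Sca1+ libraries and 585, 549, 527 and 542 in 4T1-Sca1- libraries. All 4T1-Sca1+ libraries were below all 4T1-Sca1- libraries, and the log2 fold change was -0.35 ± 0.06. Gpc3, the glypican that marks fetal liver and hepatocellular carcinoma, was near absent. Gpc3 (ENSMUSG00000055653, chromosome X, 52272426 to 52613950, minus strand) had a sum of 0 counts in the SCA1+ fraction and of 4 in the SCA1- fraction, and this depth could not show a difference. A count of 0 allows up to 3 counts, and such limits cover counting error only.

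Both syntenins were lower in 4T1-Sca1+ cells, by very different amounts. Sdcbp2, which encodes syntenin-2, a PDZ protein that binds phosphoinositides, is located on chromosome 2, 151572622 to 151590005, plus strand (ENSMUSG00000027456). It had 178, 175, 162 and 151 normalized counts in 4T1-Sca1+ libraries and 698, 687, 800 and 737 in 4T1-Sca1- libraries. No 4T1-Sca1+ library came near the 4T1-Sca1- range. The means were 166.2 ± 12.7 and 730.7 ± 51.2 (SD, n = 4), and the log2 fold change of -2.12 ± 0.08 had rank 10 from the lowest among all tested genes. Sdcbp2 is also in a list of genes low in 4T1-SCA1+ cells that the study drew from these libraries, so its place there is no independent evidence.

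Sdcbp, which encodes syntenin-1, had 1838, 1923, 1668 and 1846 normalized counts in 4T1-Sca1+ libraries and 2216, 2081, 2137 and 2221 in 4T1-Sca1- libraries. Sdcbp (ENSMUSG00000028249, chromosome 4, 6365650 to 6408423, plus strand) differed by a log2 fold change of -0.24 ± 0.05, with no overlap between the groups. Its end overlaps Nsmaf on the opposite strand, with 78 bases as the longest overlap between single exons. Nsmaf had 4489 counts over all libraries, and how reads in the shared stretch were assigned is not stated.

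**Figure D2:**
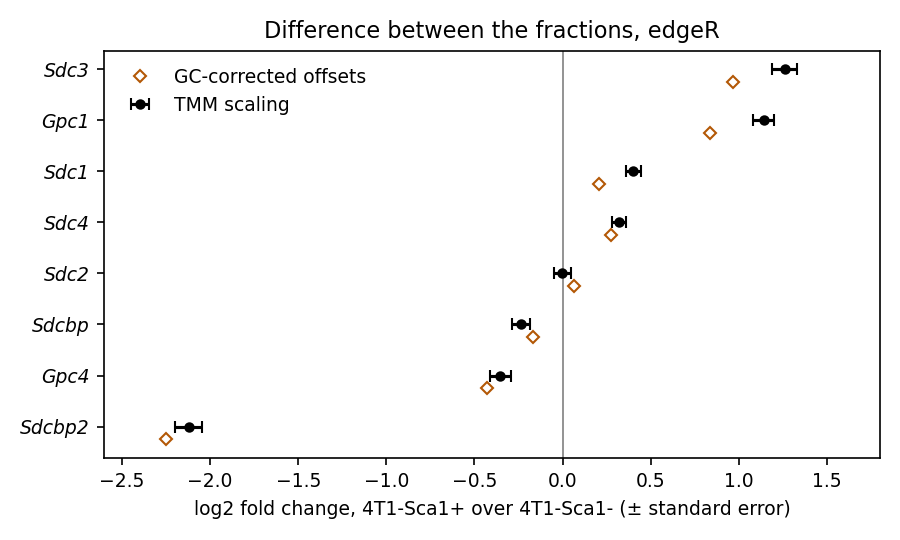
Log2 fold change of 4T1-Sca1+ over 4T1-Sca1- cells for the 8 tested members, with the standard error of the edgeR fit (black points and bars) and the value with GC-corrected offsets (open diamonds). Sdcbp2 lies at -2.12 and at -2.25 after correction, Sdc3 and Gpc1 are beyond 1 on the other side and drop to 0.97 and 0.84 after correction, and Sdc2 lies at 0.

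Levels were compared between genes per length, as CPM divided by the merged exon length in kilobases (RPKM). In 4T1-Sca1+ cells the order by mean RPKM was Sdc4 (163 ± 4.7), Gpc1 (142 ± 13.3), Sdc1 (91.2 ± 3.7), Sdc2 (23.1 ± 1.1), Sdcbp (17.4 ± 1.1), Sdc3 (12.2 ± 0.9), Gpc4 (10.7 ± 0.4) and Sdcbp2 (7.86 ± 0.61). In 4T1-Sca1- cells it was Sdc4 (130 ± 1.5), Sdc1 (69.0 ± 1.1), Gpc1 (64.2 ± 3.4), Sdcbp2 (34.2 ± 2.5), Sdc2 (23.1 ± 0.6), Sdcbp (20.5 ± 0.7), Gpc4 (13.62 ± 0.61) and Sdc3 (5.09 ± 0.50). Neighbours whose libraries overlapped were Sdc4 and Gpc1 in the first of these orders and Sdc1 and Gpc1 in the second, and the others were apart. Gpc1 thus stood beside Sdc4 in one fraction and beside Sdc1 in the other, while Sdcbp2 went from rank 4 to the last place and Sdc3 left the last place. With the length of the longest transcript in place of merged exons, Sdcbp ranked 4 in both fractions. Its merged exons (6904 bases) are far longer than its longest transcript (2745 bases). Sdcbp2 was then at rank 5 in 4T1-Sca1- cells and still last in 4T1-Sca1+ cells. Gpc1 (175 RPKM) was then at rank 1 in 4T1-Sca1+ cells, above Sdc4 (169 RPKM) with overlapping libraries.

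The summed level of the 4 syndecans was 289 ± 7.8 RPKM in 4T1-Sca1+ and 228 ± 3.3 RPKM in 4T1-Sca1- cells. That of Gpc1 and Gpc4 was 152 ± 13.63 against 77.8 ± 3.4 RPKM, and that of the syntenins 25.3 ± 1.4 against 54.8 ± 2.6 RPKM (SD, n = 4). Glypicans made up 34.5% ± 1.4 of the surface proteoglycan level (syndecans and glypicans) in the SCA1+ fraction, against 25.5% ± 0.6 in the other. Sdc4 and Sdc1 made up most of the syndecan level in both fractions. Sdc4 held 56.3% ± 0.6 against 57.3% ± 0.2, Sdc1 31.5% ± 0.6 against 30.3% ± 0.3, Sdc2 7.99% ± 0.54 against 10.1% ± 0.2 and Sdc3 4.21% ± 0.22 against 2.23% ± 0.19. Gpc1 held 93.0% ± 0.4 of the glypican level in 4T1-Sca1+ and 82.5% ± 1.1 in 4T1-Sca1- cells.

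The makeup of the syntenins differed most. Sdcbp2 held 31.1% ± 1.7 of the syntenin level in 4T1-Sca1+ and 62.5% ± 1.7 in 4T1-Sca1- cells. The ratio of Sdcbp to Sdcbp2 per length was 2.09, 2.23, 2.09 and 2.48 in 4T1-Sca1+ libraries and 0.643, 0.614, 0.541 and 0.610 in 4T1-Sca1- libraries. On merged exons the more abundant syntenin therefore changed between fractions. With the longest transcript the shares of Sdcbp2 were 15.2% and 39.8% and Sdcbp was the larger in both, so which one dominates in 4T1-Sca1- cells depends on the length taken, and the direction between fractions does not.

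**Figure D3:**
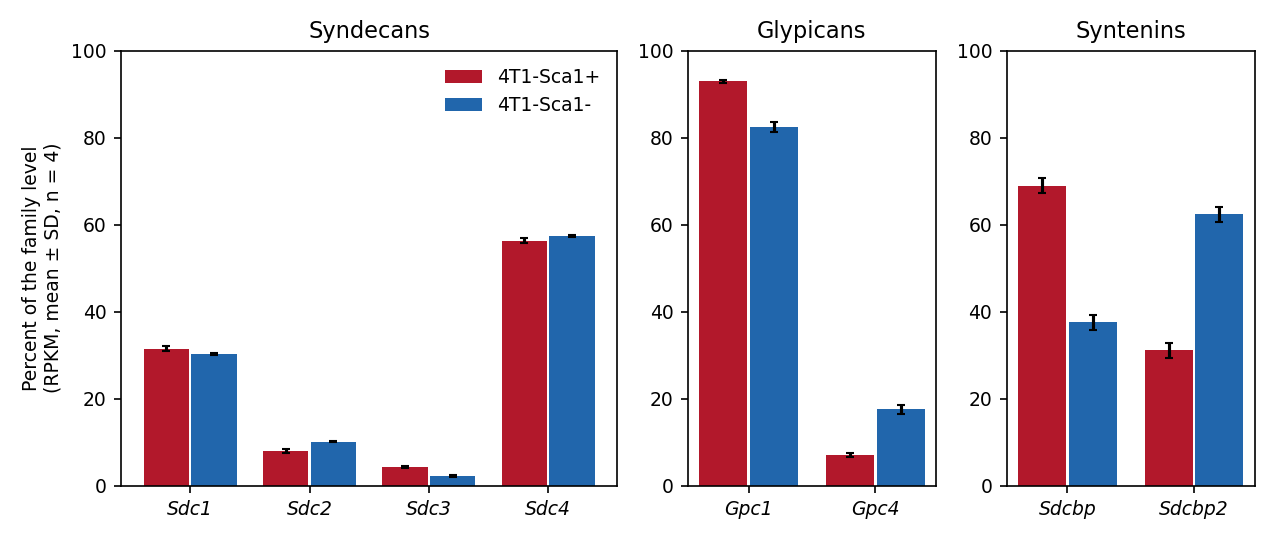
Share of each member in the summed RPKM of its family (bars, mean of 4 libraries, with SD) in 4T1-Sca1+ (red) and 4T1-Sca1- (blue) cells. Sdc4 and Sdc1 take most of the syndecan level in both fractions, Gpc1 takes 93.0% against 82.5% of the glypican level, and Sdcbp2 takes 31.1% against 62.5% of the syntenin level.

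The genes that build, sulfate, edit and degrade the sugar chains, and those that act with syndecans and syntenins, were examined as 10 lists. These lists were written from general knowledge, with earlier results of these data already known. Of 113 entries 95 were counted and 83 tested, of which 41 rose and 14 fell in the SCA1+ fraction (edgeR, adjusted p under 0.05). This is 49.4% and 16.9% of those tested, beside 31.3% and 30.2% of all tested genes. The median log2 fold change was 0.15 against 0.0074 over all genes. GC-corrected offsets moved this split to 29 higher and 22 lower, and that of all genes from 3668 higher and 3538 lower to 3103 higher and 4719 lower. With library totals alone 46 list genes were higher and 9 lower, beside 4118 and 2984 over all genes. The median over all genes was 0.050 with library totals alone and -0.064 with GC-corrected offsets. Since earlier results were known when the lists were made, nothing is read from these counts or from those of each list below.

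**Figure D4:**
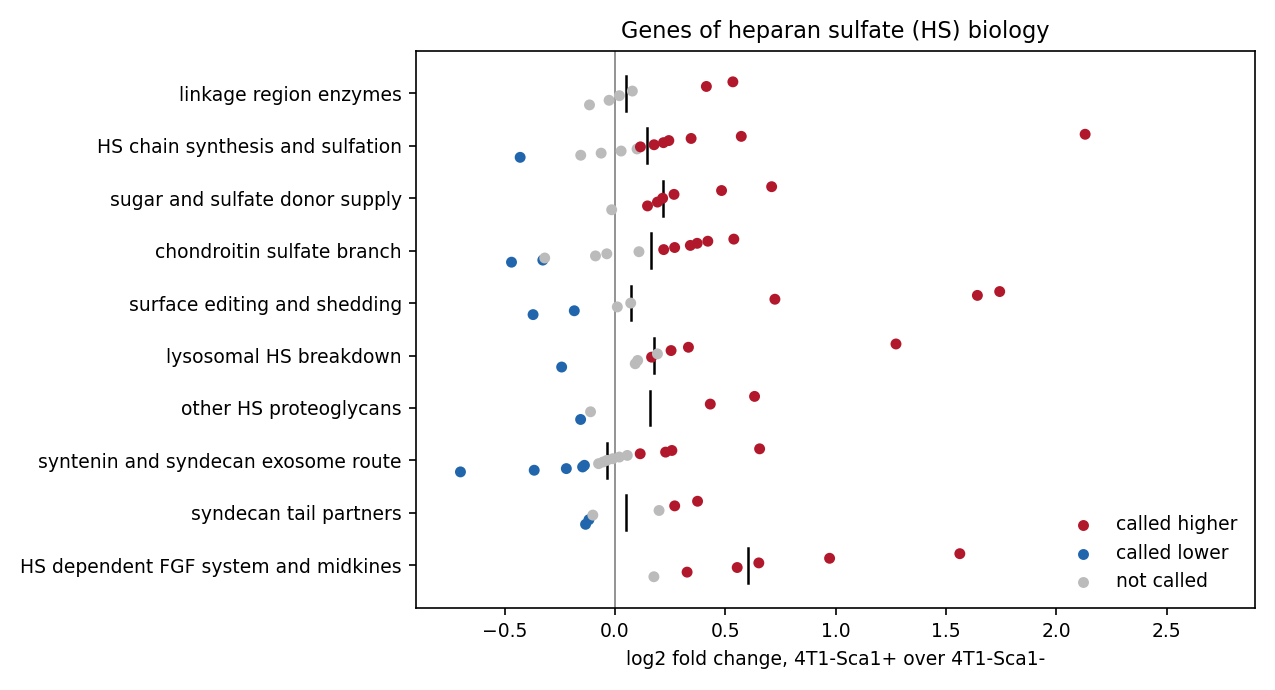
Log2 fold change of 4T1-Sca1+ over 4T1-Sca1- cells for the 83 tested genes of 10 lists, 1 point per gene, colored by the edgeR call (adjusted p under 0.05), with a black line at the median of each list. Sulf2, Notum, Extl1 and Fgfr1 lie farthest to the right, and the lowest value is that of Chmp4c at -0.70.

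The enzymes that edit chains at the cell surface held some of the largest differences. Sulf2, an extracellular sulfatase that removes 6-O-sulfates from heparan sulfate, rose from 228.6 ± 25.0 to 759.6 ± 35.8 normalized counts, a log2 fold change of 1.74 ± 0.07 (adjusted p 1.8e-12, edgeR). Notum, a secreted lipase that inactivates WNT proteins and was first described as releasing glypicans, rose from 64.9 ± 10.04 to 200.3 ± 32.9 (1.64 ± 0.14, adjusted p 1.49e-08). Hpse, the endoglycosidase heparanase, rose from 63.5 ± 6.8 to 104 ± 7.5 (0.72 ± 0.12, adjusted p 4.87e-05). In each of these 3 genes all 4T1-Sca1+ libraries were above all 4T1-Sca1- libraries. Of the proteases that shed syndecans, Mmp14 fell by 0.37 on the log2 scale (adjusted p 2.65e-06) and Mmp9 by 0.18 (adjusted p 0.00436), with overlapping groups for Mmp9, whereas Adam10 (0.01 ± 0.07) and Adam17 (0.07 ± 0.05) were not called. Adam17 was called higher with GC-corrected offsets (0.095). With GC-corrected offsets Mmp9 was at -0.38. Of 11 genes listed 7 were tested, with 3 higher, 2 lower (42.9% and 28.6%, all genes 31.3% and 30.2%) and a median of 0.07. Sulf1, Mmp2 and Mmp7 had at most 3 counts in any library.

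Among enzymes of chain synthesis and sulfation, 7 of 12 tested genes were higher and 1 was lower, with a median log2 fold change of 0.15. This is 58.3% and 8.33%, beside 31.3% and 30.2% of all tested genes. Extl1, an exostosin-like glycosyltransferase, had 23.3 ± 5.5 against 5.19 ± 1.53 normalized counts and rose by a log2 fold change of 2.13 ± 0.31 (adjusted p 1.3e-05, edgeR), at a low level in both fractions. Hs3st1, the 3-O-sulfotransferase that makes antithrombin-binding heparan sulfate, rose by 0.57 ± 0.06 (1006 ± 74.3 against 682 ± 6.2, adjusted p 1.37e-07). Hs6st1, which adds the 6-O-sulfates, rose by 0.35 ± 0.05, a call lost with GC-corrected offsets (0.08, adjusted p 0.0618). Glce, the epimerase that turns glucuronic into iduronic acid, fell by 0.43 on the log2 scale (adjusted p 0.000259). The chain polymerases Ext1 and Ext2 were higher by 0.24 ± 0.05 and 0.18 ± 0.05, and the call of Ext2 was lost with GC-corrected offsets (0.039, adjusted p 0.38). GC-corrected offsets left 3 higher genes in this list, beside 3103 of all 11717 genes. Of 21 genes listed, 8 were not among the genes counted.

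Of the enzymes that build the linker between core protein and chain, 2 of 6 tested were higher and 0 lower (median 0.05). This is 33.3% and 0%, beside 31.3% and 30.2% of all tested genes. With GC-corrected offsets 2 were higher and 2 lower (3103 and 4719 of all 11717 genes). The 2 higher genes were Xylt2, the xylosyltransferase that starts the chain (0.53 ± 0.07, adjusted p 3.69e-06, edgeR), and Pxylp1, a phosphatase of the linker xylose (0.41 ± 0.07). Xylt2 was at 0.20 with GC-corrected offsets. Of the 7 tested genes that supply sugar and sulfate donors, 6 were higher and 0 lower (85.7% and 0%, all genes 31.3% and 30.2%, median 0.22). With GC-corrected offsets the split was 5 and 1 (3103 and 4719 of all 11717 genes). The higher genes were led by the sulfate transporter Slc26a2 (0.71 ± 0.10, adjusted p 5.19e-06, edgeR) with Ugp2 (0.48 ± 0.08) and Slc35d1 (0.27 ± 0.07). In the chondroitin sulfate branch, which shares the linker, 6 of 12 were higher and 2 lower (50% and 16.7%, all genes 31.3% and 30.2%, median 0.16). Chpf2 (0.54 ± 0.06), Csgalnact2 (0.42 ± 0.09) and Chst11 (0.37 ± 0.06) led the higher genes, and Dse, the epimerase that makes dermatan sulfate, fell by 0.47 and Ust by 0.33 on the log2 scale. Chpf2 was at 0.25 with GC-corrected offsets.

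Of the lysosomal enzymes that degrade heparan sulfate, 4 of 8 were higher and 1 lower (50% and 12.5%, all genes 31.3% and 30.2%, median 0.18). The split was 6 and 0 with library totals alone and 2 and 1 with GC-corrected offsets. Over all 11717 genes it was 4118 and 2984 with library totals alone and 3103 and 4719 with GC-corrected offsets. Arsg (1.27 ± 0.28, adjusted p 0.000831, edgeR) had few counts, with 21.8 ± 5.3 against 9.05 ± 2.24. Hgsnat was higher by 0.25 ± 0.07 and Idua by 0.33 ± 0.12. The call of Idua was lost without 4T1-Sca1+ replicate 3 (0.19), without 4T1-Sca1- replicate 2 (0.26) and with GC-corrected offsets (0.16). Ids was lower (-0.24 ± 0.08, with overlapping groups), and its call was lost without 4T1-Sca1+ replicate 4 (-0.20), without 4T1-Sca1- replicate 1 (-0.19) and with library totals alone (-0.20).

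Among the other heparan sulfate proteoglycans, the basement membrane protein Hspg2 (perlecan) was not called (-0.11 ± 0.06) but was called lower without 4T1-Sca1+ replicate 3 (-0.17), with no low-count filter (-0.12) and with GC-corrected offsets (-0.46). Col18a1, the collagen that gives rise to endostatin, rose by 0.63 ± 0.07 (7679 ± 878 against 4995.9 ± 385 normalized counts, adjusted p 3.71e-07, edgeR), with 0.28 after GC correction. Tgfbr3, the part-time proteoglycan betaglycan, rose by 0.43 ± 0.06. Agrn (agrin) was lower (-0.16 ± 0.05, with overlapping groups), and at -0.39 after GC correction. Its call was lost with scaling by library totals alone (-0.11, adjusted p 0.0521). In all, 2 of 4 were higher and 1 was lower (50% and 25%, all genes 31.3% and 30.2%, median 0.16). The lower genes numbered 0 under library totals alone and 2 under GC-corrected offsets, beside 2984 and 4719 of all 11717 genes. Srgn had at most 1 count, and Gpc2 and Gpc5 were not among the genes counted.

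Of 15 genes of the syntenin and syndecan route to exosomes, 4 were higher and 5 lower (median -0.04). These shares, 26.7% and 33.3%, lay near the 31.3% and 30.2% of all tested genes. With GC-corrected offsets 1 was higher and 6 were lower (3103 and 4719 of all 11717 genes). Pld2, the phospholipase D that acts with ARF6 on syntenin exosomes, rose by 0.66 ± 0.07 (867 ± 90.4 against 556 ± 38.7 normalized counts, adjusted p 4.89e-07, edgeR). Chmp4c, an ESCRT-III subunit, fell by 0.70 on the log2 scale (adjusted p 1.34e-06), the tetraspanin Cd63 by 0.37 (adjusted p 8.11e-07) and the ATPase Vps4a by 0.22. With GC-corrected offsets Cd63 was at -0.64. Pdcd6ip, which encodes ALIX, was lower by a small amount (-0.14 ± 0.04, adjusted p 0.00594). Src (0.26 ± 0.05) and Arf6 (0.23 ± 0.05) were higher, but GC-corrected offsets turned their signs (-0.048 and -0.097) and ended their calls. These offsets also moved the median over all tested genes, from 0.0074 to -0.064.

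Of 6 partners of the syndecan tail, 2 were higher and 2 lower (median 0.05). This is 33.3% in each direction, near the 31.3% and 30.2% of all tested genes. The split was 3 and 0 with library totals alone and 2 and 4 with GC-corrected offsets. Over all 11717 genes it was 4118 and 2984 with library totals alone and 3103 and 4719 with GC-corrected offsets. The PDZ scaffold Cask (0.37 ± 0.08, adjusted p 0.000521, edgeR) and the RAC exchange factor Tiam1 (0.27 ± 0.06) were higher, with overlapping groups for Cask and 0.16 after GC correction for Tiam1. Prkca, the protein kinase C alpha that binds Sdc4, was lower (-0.13 ± 0.05), a call lost without replicate 1 of 4T1-Sca1+ (-0.12) or of 4T1-Sca1- (-0.12) and with library totals alone (-0.09). Actn4 was lower (-0.12 ± 0.04), a call lost without 4T1-Sca1- replicate 2 (-0.098), with library totals alone (-0.075) and with the replicate number as a block (adjusted p 0.0522). After GC correction Actn4 was at -0.32.

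In the FGF system, many ligands need heparan sulfate to engage their receptors. Of its 6 tested genes 5 were higher and 0 lower, with a median of 0.60. This is 83.3% and 0%, beside 31.3% and 30.2% of all tested genes. Fgfr1 had 192 ± 26.5 against 65.1 ± 7.2 normalized counts and rose by 1.56 ± 0.12 (adjusted p 9.04e-09, edgeR). Fgfr2, the epithelial FGF receptor, rose by 0.65 ± 0.05 (1948 ± 114 against 1249.8 ± 64.1, adjusted p 1.04e-08). Fgfr3 was not called (0.18 ± 0.09), but was called higher with library totals alone (0.22) and without 4T1-Sca1- replicate 2 (0.25). It changed sign with GC-corrected offsets (-0.052), where the median over all tested genes was -0.064. The ligand Fgf7 rose by 0.97 ± 0.30 (adjusted p 0.00931) but had only 21.6 ± 1.7 against 10.9 ± 5.9 normalized counts. Fgf2 and Fgf10 were not among the genes counted, and Fgfr4, Fgf9 and Ptn had at most 3 counts in any library.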

How the data were processed

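Libraries were made from total RNA of sorted 4T1 cells (TruSeq RNA kit V2, NextSeq 500). Per the labels, cutadapt 1.16 and STAR 2.5.3a were used on GRCm38. The counting tool, the annotation and the use of strand are not given in the sources used here. The authors deposited raw counts per Ensembl gene (16341 genes) and a table of signal (15372 genes) that equals these counts divided by 1 size factor per library. Symbols, positions, lengths and GC content came from GENCODE M21 (GRCm38), which matched 16202 genes and not 139.

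Counts were tested with edgeR 4.0.16 in R 4.3.3 (filterByExpr, TMM, glmQLFit and glmQLFTest, two-sided, no covariate, Benjamini-Hochberg adjustment over 11717 genes). The standard error was the absolute log2 fold change divided by the square root of F. RPKM used TMM-scaled library sizes. Totals of 13561804 to 16968215 counts set the precision. The alternatives were other scalings and filters, DESeq2 1.42.0, limma 3.58.1 (voom, or log2 of the signal plus 1 or 0.5), the replicate number as a block, GC-corrected offsets, a fold limit and leaving out each library. The code was tested on simulated data. The members and lists were chosen with earlier results of these data known. All 10 members were named, with up to 3 called genes in each direction from each list with the most extreme log2 fold change. Other genes named (Adam10, Adam17, Ext1, Ext2, Hspg2, Pdcd6ip, Fgfr3 and those at the floor) were chosen after their values were seen.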

Additional observations from a re-analysis of the deposited data

Results flagged for a closer look

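In 129 groups of 4 libraries (members, named genes, list sums and shares), 11 values lay apart from the other 3 of their group by Dixon's ratio at its 95% limit. In independent groups chance gives about 6.45 (1 in 20 groups), but these groups share genes and are not independent. The ratio is relative to the spread within a group, so a small difference can be flagged where the other 3 values are close. Of these values, 6 belonged to 4T1-Sca1+ replicate 3. Gpc1 had 12654 normalized counts there, against 10452 to 10634 in the other 3. Xylt2 had 894 against 734 to 752, and Idua 236 against 164 to 170. The summed CPM of the other heparan sulfate proteoglycans was 2699 against 2306 to 2359, that of the syndecan tail partners 1380 against 1285 to 1300, and that of the FGF system and midkines 224 against 197 to 201. In 4T1-Sca1+ replicate 4 the summed CPM of donor supply genes was 489 against 480.0 to 481, and in 4T1-Sca1- replicate 3 it was 399 against 416 to 419. Hs3st1 had 691 normalized counts in 4T1-Sca1- replicate 1 against about 679 in each of the other 3. In 4T1-Sca1- replicate 2, Slc35d1 had 237 against 246 to 247 and Chst11 had 394 against 413 to 416. The cause was not tested.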

How the results depend on the processing

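The direction and call of Sdc1, Sdc3, Sdc4, Gpc1, Gpc4, Sdcbp and Sdcbp2 held under every alternative run other than the fold limit. Requiring a log2 difference of 1 or more left out Sdc1 (0.40), Sdc4 (0.32), Gpc4 (-0.35) and Sdcbp (-0.24), which leaves 2 members higher and 1 lower, 612 genes higher and 103 lower over all genes, and 5 list genes higher and 0 lower, by its construction. Sdc2, never called, changed sign with library totals alone (0.0411), with at least 10 counts in every library (0.00913) and with GC-corrected offsets (0.0657). The median over all tested genes was 0.050, 0.0081 and -0.064 under these settings, against 0.0074 in the main fit. Over the 8 fits that each left out 1 library, Sdc2 ran from -0.0362 to 0.0173. The lower list genes numbered 9 with library totals alone and 22 with GC-corrected offsets, beside 14. Over all 11717 genes the lower ones numbered 2984 and 4719, beside 3538. GC-corrected offsets also turned Src (-0.0478) and Arf6 (-0.0966), with the median over all tested genes at -0.064. The cause was not tested.

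Fitting a replicate block gave 3605 higher and 3452 lower genes, and 38 list genes were higher and 13 lower. No member changed its call. The check of pairing gave correlations of 0.0957, -0.15, -0.0339 and -0.00107 between deviations of equally numbered libraries. The labels give only the shared number, and whether such libraries came from the same sort is not stated.

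With the longest transcript as length, shares moved by more than 1 SD. In 4T1-Sca1+ and 4T1-Sca1- cells they were 34.8% and 33.6% for Sdc1, 7.30% and 9.33% for Sdc2, 4.64% and 2.47% for Sdc3, 53.3% and 54.6% for Sdc4, 94.2% and 85.3% for Gpc1, 15.2% and 39.8% for Sdcbp2, and 36.9% and 27.3% for glypicans among surface proteoglycans. Each kept its direction between the fractions. Depth limits Gpc3, Extl1, Arsg and Fgf7.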
